A study of Homo sapiens with 10 samples.

Results

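The regions described here carried a peak of H4R3me2s, the symmetric dimethylation of arginine 3 on histone H4, in 2 or 3 of the 3 chromatin immunoprecipitation libraries made from α-synuclein-induced SH-SY5Y cells. Members were found by merging the peaks of the 3 libraries wherever 1 bp or more overlapped. The 24136 peaks gave 23972 merged regions, and 160 of them (0.667%, 95% exact Clopper-Pearson interval 0.568 to 0.779%) held a peak of more than 1 library. Of these, 147 lay on chromosomes 1 to 22 or X and 13 on other sequences. SH-SY5Y is a human neuroblastoma line, and the series held 10 samples, of which this state had 3 libraries (BDNF+Dox, replicates 1 to 3). These cells were grown in 10% FCS under 300 µg/ml zeocin and turned toward a neuronal state over 10 days, first with 10 µM retinoic acid (RA) and 3% FCS for 6 days, then serum-free with 50 ng/ml BDNF for 4 days. A Tet-on construct supplied α-synuclein during 3 days of doxycycline at 1 µg/ml. Chromatin was fixed for 10 minutes in formaldehyde at 1%. The background was 1 Input library of the same line, labelled as having had no treatment, so differentiation, doxycycline and antibody all separate it from the 3 libraries and cannot be told apart. The labels do not say whether the replicates came from separate cultures, and their spread may be technical.

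PRMT5 is the main known writer of H4R3me2s, and the mark is known chiefly for its association with transcriptional repression. α-Synuclein is a presynaptic protein that also enters the nucleus and accumulates in Parkinson disease. BAF is a chromatin remodelling complex whose ATPase is SMARCA4. The title of the series joins α-synuclein, this complex and PRMT5.

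2 regions on chromosomes held a peak in all 3 libraries, one inside NRCAM and one close to OR10D3. Both lay outside the windows of 250 bases before to 50 bases after a transcription start in the RefSeq table for GRCh38.p14. The window of the protein-coding start nearest to each is printed, together with that of F2RL2, the listed start that came closest to a shared region among the starts analysed here, which do not cover every gene. Each reads 5′ to 3′ on the strand of its gene, with CG dinucleotides, the sites of cytosine methylation, in capitals.
NRCAM (chr7:108328477-108328776, minus strand): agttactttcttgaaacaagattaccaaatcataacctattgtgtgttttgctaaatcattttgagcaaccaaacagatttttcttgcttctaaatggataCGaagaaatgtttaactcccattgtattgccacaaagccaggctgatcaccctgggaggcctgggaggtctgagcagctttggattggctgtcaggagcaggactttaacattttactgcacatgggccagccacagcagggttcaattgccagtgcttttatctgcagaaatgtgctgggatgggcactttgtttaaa
OR10D3 (chr11:124183095-124183394, plus strand): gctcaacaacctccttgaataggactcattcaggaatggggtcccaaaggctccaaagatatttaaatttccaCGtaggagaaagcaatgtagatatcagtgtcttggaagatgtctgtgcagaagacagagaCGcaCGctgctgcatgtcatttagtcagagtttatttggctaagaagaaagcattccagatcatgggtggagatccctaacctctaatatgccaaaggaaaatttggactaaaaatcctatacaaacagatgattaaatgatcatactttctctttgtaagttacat
F2RL2 (chr5:76623354-76623653, minus strand): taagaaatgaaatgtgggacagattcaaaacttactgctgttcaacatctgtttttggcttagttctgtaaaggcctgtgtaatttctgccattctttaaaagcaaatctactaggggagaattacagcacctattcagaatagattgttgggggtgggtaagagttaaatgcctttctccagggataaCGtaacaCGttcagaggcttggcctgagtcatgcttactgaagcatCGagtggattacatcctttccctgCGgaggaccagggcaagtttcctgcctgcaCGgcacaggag
The NRCAM window, at an internal start that is 1 of 3 listed for the gene, held 1 CG and had a G and C content of 42.7%. The OR10D3 window held 3 and the F2RL2 window 5, with G and C contents of 39.3% and 44.7%. Over all 35116 windows the median was 14 (quartiles 4 and 28) and 96.0% held at least 1. The region inside NRCAM began downstream of that start at a distance of 6100 bp. The region near OR10D3 ended 4409 bp upstream of its start, and the region near F2RL2, which sits inside IQGAP2, was 2132 bp upstream of the F2RL2 start.

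A pair of regions on chromosome 15 lay beside copies of the same microRNA gene, and its mature sequence is printed with the seed (bases 2 to 8) in capitals, because near-identical copies can exchange aligned reads.
hsa-miR-4509: aCUAAAGGauauagaagguuuu
MIR4509-1 (chr15:23197827-23197920, plus strand) lay 1002 bp from the region at chr15:23198922-23199145. MIR4509-3 (chr15:28490752-28490845, minus strand) lay 3919 bp from the region at chr15:28494764-28495044. The mature sequence listed for the copies is the same, and how the authors placed reads that match both was not given in the sources used here. The first of these regions had 12 reads at its summit in replicate 2 and 10 in replicate 3. The other had 15 reads in replicate 2 and 9 in replicate 3, over a background of 4.23 and 3.17 reads. Neither had a peak in replicate 1.

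Most peaks in these libraries stood on few reads. Replicates 1, 2 and 3 held 10864, 6942 and 6330 peaks (8045 ± 2460, SD, n = 3) from 18928589, 18062749 and 18027832 retained reads, against 17074000 retained Input reads. A peak here is a stretch that the caller MACS2 placed over the Input at a p of 0.01. The median summit in each library stood on 7 reads, over a median background of 1.19 ± 0.0637 reads, with a median fold of 3.42 ± 0.0939. This background is the value implied by the deposited fold, not a count of Input reads at the peak. In shared chromosomal regions its lower quartiles, 1.226, 1.125 and 1.055 in replicates 1 to 3, lay near the lowest values, 1.226, 1.123 and 1.027. Reads at a summit were recovered from the deposited pileup and came out whole, within 0.03, in 100% of peaks. Peaks covered 0.0596 ± 0.0221% of the effective genome. A q-value of 0.05 or less was reached by 16, 31 and 26 peaks, and 91.4 ± 1.47% of the peaks of a library had a q of 1. Fold, p and q of single peaks are the authors' own values throughout.

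Sharing between libraries was rare in every pairing. Of the peaks of replicate 1, 0.718% were overlapped by a peak of replicate 2 and 0.469% by one of replicate 3. The share reached its highest value, 1.12%, for peaks of replicate 2 met by replicate 1, the library with the most peaks. On chromosomes, 66 regions were shared by replicates 1 and 2 only, 47 by replicates 1 and 3 only, 32 by replicates 2 and 3 only, and 2 by all. Replicate 1 thus took part in 115 of the 147, replicate 2 in 100 and replicate 3 in 81.

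Summits of different libraries nonetheless lay close together more often than at larger distances. All 3 libraries were called against the same Input, so their peaks are not independent calls, and the part of the Input was not tested. There were 93 pairs of summits less than 100 bp apart, 52 pairs from 100 to 200 bp and 41 pairs from 200 to 300 bp. Between 1000 and 2000 bp each 100 bp bin held between 15 and 23 pairs, with a median of 17. The bins from 300 to 1000 bp held between 18 and 36. Within the 147 regions the overlap had a median of 136 bp (2 to 256) and the closest summits a median distance of 72 bp. The overlap was 10 bp or less in 6 regions, while 2 pairs of neighbouring peaks missed each other by a gap under 10 bp.

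**Figure D1:**
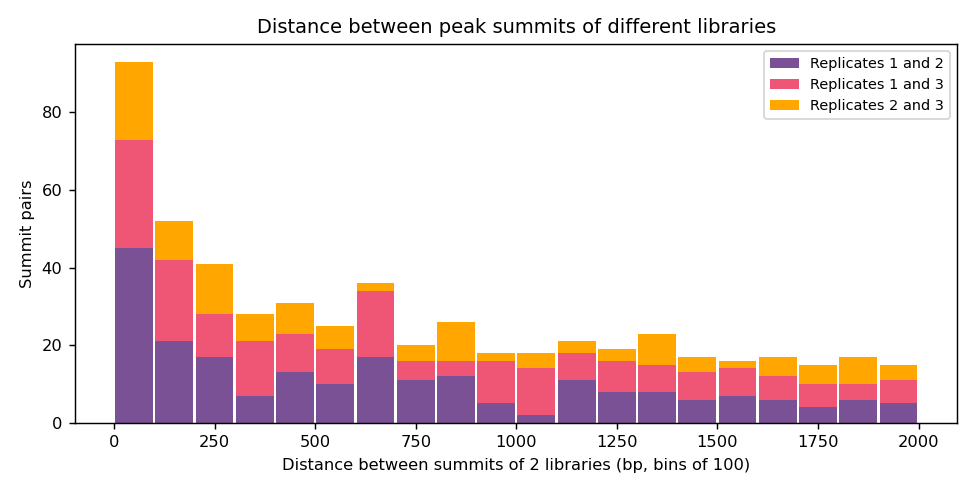
Number of summit pairs of different libraries (y axis) by the distance between them in bp (x axis, bins of 100 bp), stacked by pair of replicates. The first bin holds 93 pairs, and each bin from 1000 to 2000 bp holds between 15 and 23.

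Sharing was highest among the strongest peaks in replicates 1 and 2, and did not rise steadily with strength below that. Among peaks of replicate 1 with a −log10 p of 6 or more, 4.49% were shared (8 of 178, 95% exact interval 1.96 to 8.66%), against 0.886% (23 of 2596, 0.562 to 1.33%) of those between 2 and 3. In replicate 2 the shares were 6.52% (9 of 138, 3.03 to 12.0%) and 1.52% (25 of 1649, 0.983 to 2.23%). In replicate 3 they were 1.61% (3 of 186, 0.334 to 4.64%) and 0.831% (11 of 1324, 0.415 to 1.48%), with intervals that overlap. From the weakest class up to a −log10 p of 5 the shares were 0.886%, 1.07% and 0.891% in replicate 1 and 1.52%, 1.22% and 1.30% in replicate 2. The statement on strong peaks therefore rests on the 8 and 9 shared peaks of the top class. These intervals, and those below, cover counting error only.

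NRCAM, a cell adhesion molecule of the L1 family that acts in axon growth and at nodes of Ranvier, was the only protein-coding gene with a region in 3 of 3 libraries. The region, chr7:108322116-108322426, lies in the interior of the gene (chr7:108147649-108456720, GRCh38). Replicates 1, 2 and 3 had 8, 10 and 8 reads at the summit over backgrounds of 1.92, 1.76 and 1.61 reads. All 3 libraries were near one another, and their 95% Poisson intervals overlap widely. Chromosomal peaks of 1 library had quartiles of 6 and 8 reads in each replicate, so most called peaks have similar counts. The likeness of the 3 counts is therefore no separate sign of agreement. The folds were 3.01, 3.92 and 3.40 and the −log10 p values 3.36, 5.00 and 3.72. The q-value was 1 in each. Summits lay between 22 and 76 bp apart. Elsewhere in its 309 kb the gene had further peaks that no other library shared, with totals of 6, 2 and 3 peaks in replicates 1, 2 and 3.

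The other region in 3 of 3, chr11:124178589-124178936, lay upstream of OR10D3, an olfactory receptor gene. It had 8, 6 and 6 reads at the summit over backgrounds of 1.36, 1.24 and 1.09, and folds of 3.69, 3.07 and 3.29. The −log10 p values were 4.37, 2.87 and 3.16 and the q-value was 1 in each library. Both regions thus had a peak in every replicate, yet neither ranked high by the strength of its weakest peak: NRCAM came at position 60 and the OR10D3 region at position 107 of 147. With a −log10 p of 3 or more required of each peak, the region near OR10D3 kept a peak in 2 libraries. With the 3 libraries cut to equal peak numbers, the NRCAM region kept a peak in 2. At a −log10 p of 5 or more NRCAM held a peak in 1 library and the region near OR10D3 in 0.

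The strongest shared regions by the weaker of their peaks lay mostly outside protein-coding genes. At the first position, chr3:91282769-91282955 had 12 reads in replicate 1 and 12 in replicate 2, with folds of 5.61 and 5.98 and q-values of 0.0634 and 0.00489. The nearest protein-coding gene, the ephrin receptor gene EPHA3, lay 1801 kb away. The next was the region beside MIR4509-1, with folds of 5.98 in replicate 2 and 5.30 in replicate 3. The region chr22:12195427-12195661 had 11 reads in replicate 1 and 13 in replicate 2. Its nearest protein-coding gene, the olfactory receptor gene OR11H1, lay 3333 kb away. These 3 regions stand well above the median of 7 reads, yet each lacked a peak in 1 of the libraries.

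Among the next regions, 2 lay on chromosome 21, at chr21:9306665-9306976 with 9 and 11 reads and at chr21:8036541-8036751 with 12 and 9 reads in replicates 2 and 3. The region chr4:49512718-49513014, whose nearest protein-coding gene, CWH43, lay 451 kb away, had the highest counts, with 24 and 18 reads in replicates 1 and 2. Its background was also high, 5.54 and 5.29 reads, which left folds of 3.77 and 3.00. Regions whose nearest protein-coding genes were C4orf17, ZNF648 and TGFB2 (35.0, 115 and 226 kb away) had between 8 and 11 reads in each library with a peak. TGFB2 encodes a growth factor of the TGF-β family. The region whose nearest protein-coding gene was the duplicated forkhead gene FOXD4L6, 256 kb away, had 9 reads in replicates 1 and 3. The region near LOC102724117 on chromosome 15 had 16 and 11 reads in replicates 2 and 3.

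4 of the 15 strongest lay in or at the end of a protein-coding gene. AMY1C encodes a salivary amylase, one of several near-identical amylase copies, so its reads are uncertain. Its interior region, chr1:103755839-103756047, had 11 reads in replicate 1 and 9 in replicate 3, with folds of 5.18 and 4.76. ADGRB3, an adhesion G protein-coupled receptor of the brain, held chr6:68882443-68882834 with 9 reads in replicate 1 and 8 in replicate 3. ZC3H11B had a region at its end, chr1:219613469-219613725, with 9 and 8 reads in the same libraries. IQGAP2, a scaffold protein that binds actin, held chr5:76625535-76625918 with 9 reads in replicate 1 and 8 in replicate 2, at folds of 4.33 and 4.15. All 4 lacked a peak in 1 library.

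**Figure D2:**
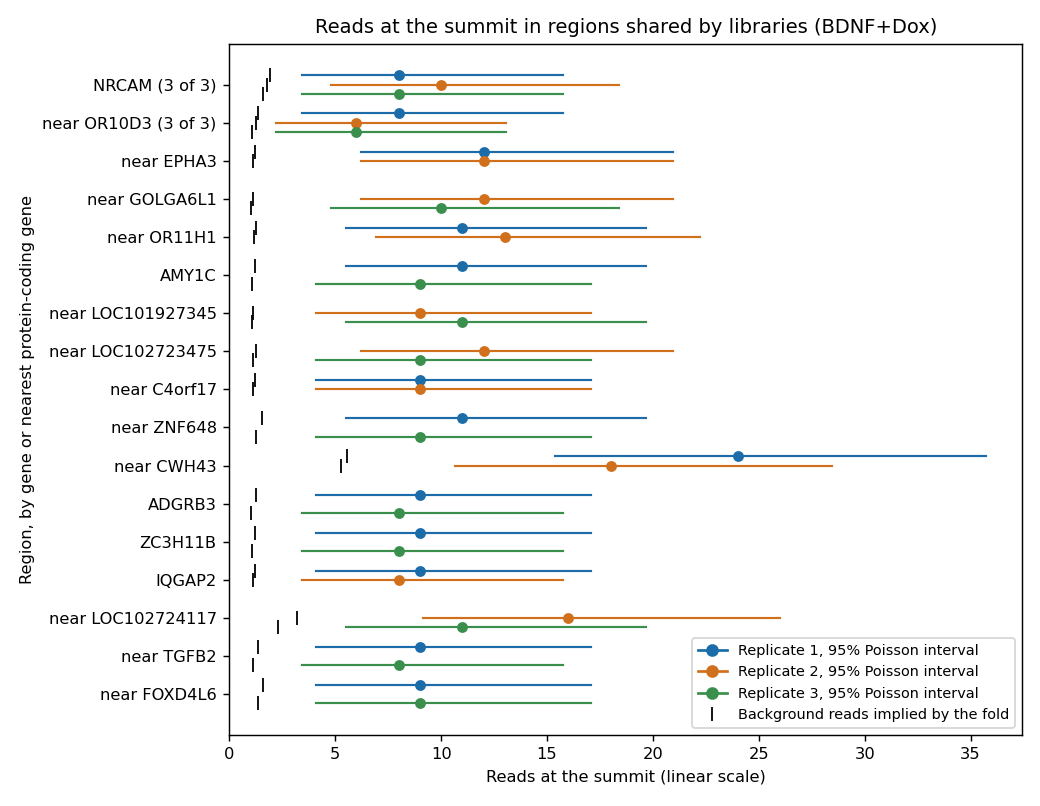
Reads at the summit (x axis, linear) in the 2 regions with a peak in 3 of 3 libraries and the 15 strongest regions with a peak in 2, one row per region. Points are single libraries with 95% Poisson intervals, and black ticks are the background reads implied by the deposited fold. Rows outside genes carry the nearest protein-coding gene, which can be far away. The NRCAM region sits at 8, 10 and 8 reads and the region labelled near CWH43, 451 kb from that gene, at 24 and 18.

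Few of these calls were strong within a library. Of the 147 regions, 7 (4.76%, 1.94 to 9.57%) had a q-value of 0.05 or less in 1 library and 0 in 2 or more. They included the regions whose nearest protein-coding genes, CWH43, EPHA3 and OR11H1, were 451 to 3333 kb away. The others were the region beside MIR4509-1, both regions on chromosome 21 given above, and chr17:61437095-61437463. The last, nearest to the limb transcription factor gene TBX4, had 12 reads and a q of 0.0228 in replicate 2, but 7 reads and a q of 1 in replicate 3. In 113 regions (76.9%) the q was 1 in every library with a peak. The weakest peak stood on 6 reads or fewer in 71 regions (48.3%) and on 10 or more in 8. Over the 147 regions the median of the weakest peak was 7 reads (range 5 to 18), the same as the median over all peaks.

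Most shared regions lay outside protein-coding genes. Of the 147, 95 (64.6%, 56.3 to 72.3%) were outside, 49 (33.3%, 25.8 to 41.6%) were in gene interiors and 3 (2.04%, 0.423 to 5.85%) lay within 2 kb of a gene end. Among the 23723 chromosomal regions of 1 library the shares were 56.6%, 40.4% and 2.98%. Of the 2900 Mb of usable sequence, 54.5% was outside, 40.7% interior and 4.75% within 2 kb of a gene end. Per library, 56.4 ± 1.61% of peaks were outside, 40.7 ± 1.55% interior and 2.97 ± 0.170% at gene ends (SD, n = 3). The interior share of shared regions was below that of single-library regions and the outside share above it, but the intervals include 40.4% and 56.6%. The outside share depends on which libraries are paired: without replicate 2 it was 49.0%, and without replicate 3 it was 75%.

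**Figure D3:**
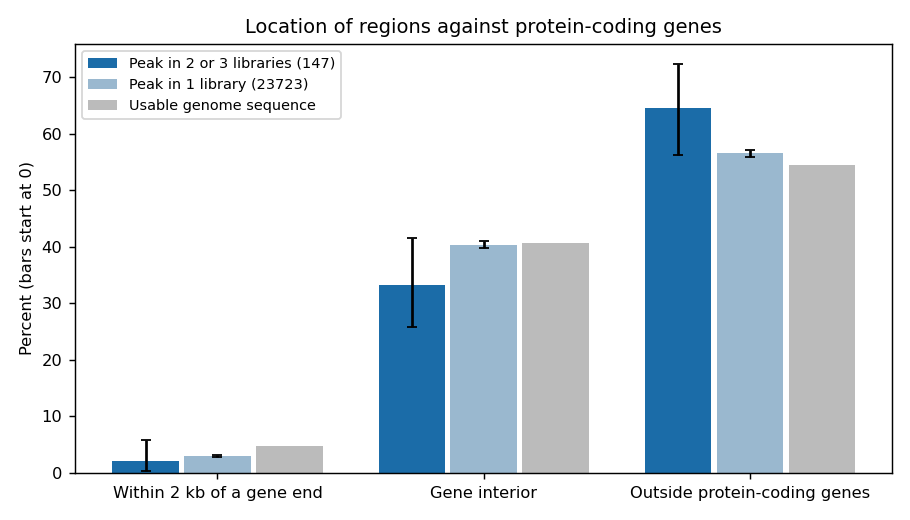
Percent of regions (y axis, bars from 0) within 2 kb of a gene end, in gene interiors and outside protein-coding genes, for the 147 regions with a peak in 2 or 3 libraries, the 23723 with a peak in 1, and the usable genome sequence. Whiskers are 95% exact binomial intervals; the outside share is 64.6% for shared regions, 56.6% for single-library regions and 54.5% for the sequence.

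The 3 gene-end regions belonged to ZC3H11B, CRNN and OTUD6B. CRNN encodes cornulin, a protein of squamous epithelia, and its region chr1:152407880-152408206 had 8 reads in replicate 1 and 7 in replicate 3. OTUD6B encodes a deubiquitinating enzyme, and its region had 5 reads in replicate 2 and 7 in replicate 3. Starts were taken from the RefSeq window table, which does not cover every gene and holds none of chromosome 8, where OTUD6B lies. The start of ZC3H11B was not analysed here. The ZC3H11B and OTUD6B regions, 0.364 and 1.71 kb from an end of their genes, were thus not placed against the starts of those genes. Over the 138 shared regions off chromosome 8, 0 overlapped a listed promoter window and 0 lay within 2 kb of a listed protein-coding start (95% exact upper limit 2.64%). Of the 22459 single-library regions off chromosome 8, 33 (0.147%) overlapped a listed window and 310 (1.38%) lay within 2 kb of a listed start. A share of that size allows few or none among 138, so a difference was not detectable at this number.

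Of the 95 regions outside protein-coding genes, 26 were in or within 2 kb of a noncoding gene or pseudogene, which left 69 (46.9%) of the 147 outside any annotated gene. Single-library regions were outside any gene in 40.0%. The 95 lay a median of 143 kb from the nearest protein-coding gene, from 2.64 kb for the region near NUFIP2 to 4796 kb. The longest gene-free stretch of each chromosome was used as a marker of gene-poor sequence, a choice made after values were seen. Within 5 Mb of it lay 18 shared regions (12.2%, 7.42 to 18.7%) and 5.71% of single-library regions. Within 1 Mb the shares were 6 regions (4.08%, 1.51 to 8.67%) and 1.21%. Most regions with a q of 0.05 or less in 1 library lay near this stretch. Those nearest to CWH43, EPHA3 and OR11H1 were 0.0767, 0.231 and 1.51 Mb from it. The region beside MIR4509-1 was 3.32 Mb away, and the 2 on chromosome 21 were 3.03 and 4.30 Mb away. The region nearest to TBX4 was 34.5 Mb away.

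Unplaced contigs held far more sharing than chromosomes. There, 13 of 102 regions (12.7%, 6.96 to 20.8%) had a peak in 2 or 3 libraries, against 147 of 23870 (0.616%, 0.521 to 0.723%) on chromosomes. Of the 4 regions in 3 of 3 libraries, 2 lay on these other sequences. One of these had 145, 129 and 139 reads in replicates 1, 2 and 3 over backgrounds of 75.4, 68.8 and 70.7, so its folds were only 1.91, 1.86 and 1.95. The other had 82, 94 and 98 reads over 37.7, 34.9 and 32.7, with folds of 2.14, 2.64 and 2.93. Over the 28 peaks of shared regions on these other sequences the median background was 10.9 reads and the median fold 2.59. The median fold of shared chromosomal peaks was 3.40.

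Chromosomes 7 and 1 held the most shared regions, 22 of the 147 each, on 5.41% and 7.90% of the usable sequence. As a share of the merged regions on the same chromosome, these were 1.1% and 0.990%. That share was higher on chromosomes 22 (2.04%), 17 (1.34%) and 21 (1.29%), which held 2, 7 and 4 shared regions. It was lower on all other chromosomes. The high counts on chromosomes 7 and 1 thus go with many peaks there, not with the highest share. Peak density on chromosome 7, relative to the genome mean of each library, was 1.54, 1.34 and 1.82 in replicates 1, 2 and 3 (1.57 ± 0.239). On chromosome 1 it was 1.09, 1.17 and 1.36 (1.21 ± 0.136), and every replicate was above its genome mean on both. Chromosome 4 followed with 11 shared regions and a relative density of 1.21 ± 0.0793. The lowest densities were those of chromosomes 19 (0.284 ± 0.0708) and 22 (0.306 ± 0.0276), with 1 and 2 shared regions. Chromosome 14 had 0 shared regions at a relative density of 0.718 ± 0.161. Over 23 chromosomes, relative density and protein-coding genes per Mb had a Pearson r of −0.653 and a Spearman rho of −0.672, given as a description because the chromosomes share libraries.

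The pull of chromosomes 1 and 7 on the count varied with the libraries. They held 29.9% of shared regions with all 3 libraries, 40.8% without replicate 2 and 14.7% without replicate 1. SH-SY5Y is known to carry extra material of chromosome 7 and of the arms 1q, 2p and 17q. On chromosome 1 the long arm had a relative density of 1.43, 1.46 and 1.93 in replicates 1, 2 and 3 and 15 shared regions, and the short arm 0.801, 0.918 and 0.864 and 7. On chromosome 2 the short arm stood at 1.27 ± 0.172 with 6 shared regions and the long arm at 1.06 ± 0.0843 with 2. On chromosome 17 the long arm stood at 0.948 ± 0.182 with 6 and the short arm at 0.475 ± 0.0150 with 1. Both arms of chromosome 7 were alike, at 1.58 ± 0.249 and 1.56 ± 0.234. The long arm was above the short arm in each library on chromosomes 1 and 17. On chromosome 2 the arms were nearly equal in replicate 2, at 1.147 for the short and 1.144 for the long arm. There the short arm was higher in replicate 1 (1.19 against 1.05) and in replicate 3 (1.46 against 0.976). Copy number was not measured here, and its part in these densities was not tested.

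**Figure D4:**
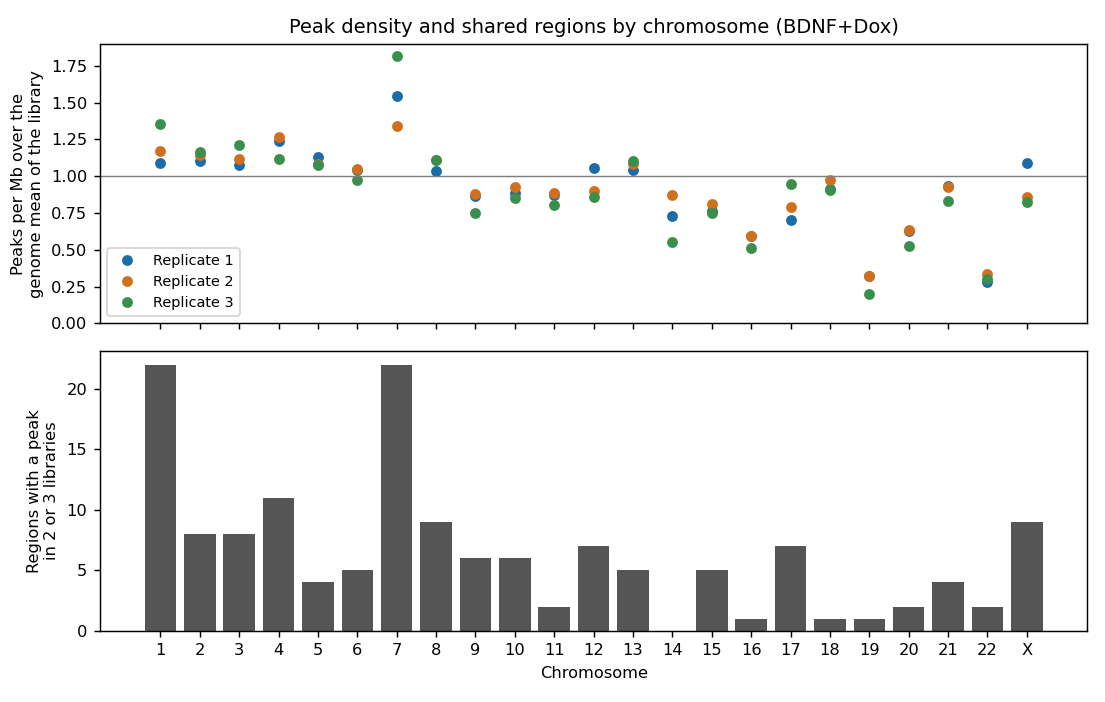
Upper panel, peaks per Mb relative to the genome mean of each library (y axis) by chromosome (x axis), one point per replicate; lower panel, number of regions with a peak in 2 or 3 libraries. Chromosome 7 is above its genome mean in all replicates (1.34 to 1.82), and chromosomes 1 and 7 have 22 shared regions each.

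Genes that carried a shared region were mostly long. In all, 51 of 19974 protein-coding genes (0.255%) had one in the gene or within 2 kb, with a median length of 250 kb against 24.2 kb for all protein-coding genes. Of the 51, 15 were over 500 kb, 28 were 200 kb or more and 8 were under 50 kb. By class, 0.0583% of genes under 50 kb, 0.309% of those from 50 to 200 kb, 1.2% of those from 200 to 500 kb and 4.78% of those over 500 kb had a shared region. In 29 of the 51 all 3 libraries had a peak somewhere in the gene, and in 1 of them, NRCAM, at the same place.

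Counting a gene wherever its peaks fell gave a steeper course. A longer gene has more sequence in which a peak can fall, so a rise with length is built into both counts. 543 genes (2.72%) had at least 1 peak of each library. This held for 0.0365% of genes under 50 kb, 2.45% of those from 50 to 200 kb, 20.1% of those from 200 to 500 kb and 64.3% of those over 500 kb. CNTNAP2, a neurexin-family protein of axons and one of the longest human genes, had 16, 8 and 8 peaks in replicates 1, 2 and 3. DMD, which encodes dystrophin, had 14, 7 and 10. DMD was chosen after its values were seen.

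**Figure D5:**
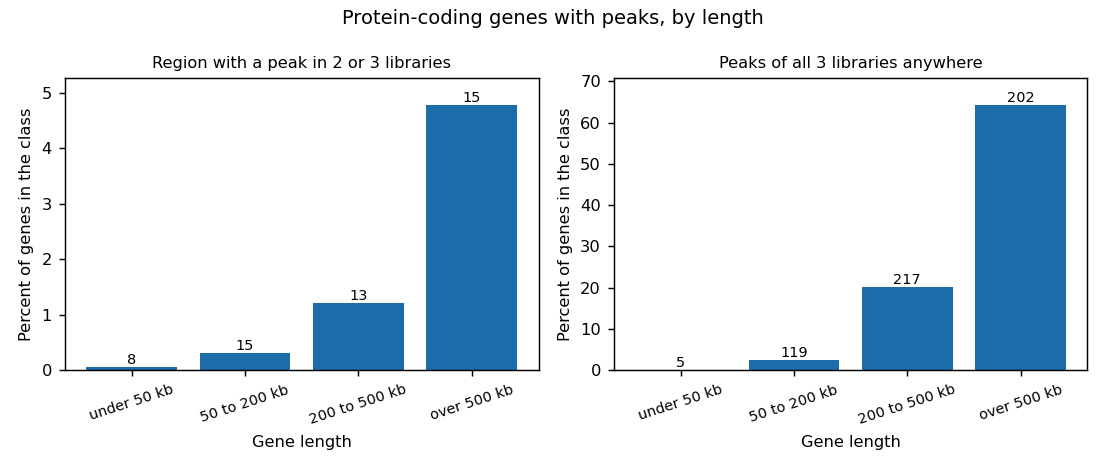
Percent of protein-coding genes (y axis, bars from 0, separate scales) with a region shared by 2 or 3 libraries (left) and with peaks of all 3 libraries anywhere in the gene (right), by gene length class (x axis), with the number of genes above each bar. The share rises from 0.0583% to 4.78% on the left and from 0.0365% to 64.3% on the right.

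MGAT4C, of the N-acetylglucosaminyltransferase family that branches N-glycans, was the only gene with 2 shared regions. In chr12:86299915-86300297 it had 9 reads in replicate 1 and 7 in replicate 3, where the peaks overlapped by 5 bp. In chr12:86429796-86430205 it had 5 reads in replicate 2 and 7 in replicate 3. The gene spans 883 kb.

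The 8 genes under 50 kb with a shared region included several enzymes. Beside AMY1C, ZC3H11B, CRNN and OTUD6B they were OAT, the mitochondrial ornithine aminotransferase, DLD, the dihydrolipoamide dehydrogenase of the pyruvate dehydrogenase complex, CPSF3, the nuclease that cleaves pre-mRNA ends, and ZC3HC1. The region in OAT had 6 reads in replicate 1 and 7 in replicate 3. That in DLD had 8 reads in replicate 1 and 6 in replicate 2. CPSF3 had 8 reads in both replicates 1 and 2, and ZC3HC1 had 8 and 9 in the same libraries. COPA, a coat protein of Golgi vesicles just above 50 kb, had 6 reads in replicate 1 and 7 in replicate 3. None of these had a shared peak in every library.

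Of 22 lists of genes, 4 had a member with a shared region, and 3 of these are described. Neuronal adhesion genes had 3 of 37 (NRCAM, CNTNAP2 and TENM2). The count rested on few peaks: it was 1 without replicate 1, 1 without replicate 2, 3 without replicate 3, and 1 with a −log10 p of 3 or more or with equal peak numbers per library. Genes over 500 kb had one in 4.78%, and the median length of this list was 775 kb. CNTNAP2 held chr7:146995587-146995876 with 8 reads in replicate 1 and 7 in replicate 2, at folds of 2.90 and 2.77. TENM2, a teneurin of synaptic contacts, held chr5:166984116-166984526 with 6 reads in each of the same libraries, where the summits lay 226 bp apart. The large fragile-site list had 1 of 21, PTPRD, a receptor tyrosine phosphatase, with 5 reads in replicate 1 and 6 in replicate 3.

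MAPT, which encodes the microtubule protein tau, was the 1 of 23 genes of the axon and cytoskeleton list. Its interior region, chr17:45969740-45969937, had 8 reads in replicate 1 and 8 in replicate 2, with folds of 3.90 and 3.93, −log10 p values of 4.68 and 4.49 and a q of 1 in both. The summits lay 43 bp apart, and replicate 3 had 0 peaks anywhere in the gene. At 134 kb MAPT belongs to a class in which 0.309% of genes had such a region.

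The other 18 lists had 0 members with a shared region: cadherins, protocadherins outside the cluster, axon guidance, presynapse, GABA receptors, ion channels, neuroblastoma genes, noradrenergic and mesenchymal markers, other cell types, retinoic acid response, BDNF and immediate early response, synuclein and Parkinson disease, arginine methyltransferases and partners, BAF complex, cell cycle, HOX, and ribosome and splicing. Peaks of all 3 libraries anywhere in the gene were found in 18 of 21 fragile-site genes, 17 of 37 adhesion genes, 10 of 23 ion channel genes, 5 of 16 cadherins, 6 of 22 presynapse genes and 7 of 34 axon guidance genes. In that order the median lengths of the lists were 1437, 775, 456, 169, 169 and 270 kb. The share was 2.72% over all protein-coding genes. By length it was 2.45% from 50 to 200 kb, 20.1% from 200 to 500 kb and 64.3% over 500 kb. All 15 noradrenergic markers and 35 of 39 HOX genes had 0 peaks in any library, and the median lengths of these lists were 11.3 kb and 3.79 kb. So had 22 of 25 ribosome and splicing genes, 18 of 21 cell cycle genes and 18 of 20 markers of other cell types. Their median lengths were 6.36, 16.5 and 17.4 kb. The share of all protein-coding genes with 0 peaks is not given here, so these counts cannot be called high or low. A missing peak says nothing about expression, so the markers do not test the cell type.

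PRMT5 and SMARCA4, the genes of the writer of the mark and of the BAF ATPase, had 0 shared regions. Both had 0 peaks in each library, as did L1CAM, the adhesion molecule related to NRCAM. The BAF list had 0 of 28 members with a shared region and 7 with a peak in any library, and the arginine methyltransferase list 0 of 18 and 4. Their median lengths were 45.6 and 25.7 kb, and the share of all genes with a peak in any library is not given here. At 8.85 kb PRMT5 belongs to the class in which 0.0583% of genes had a shared region, while SMARCA4, at 101 kb, belongs to the class with 0.309%.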

How the data were processed

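H4R3me2s ChIP-seq peak lists of the 3 BDNF+Dox libraries, each called against the 1 Input library, were used as deposited. Per the submitters' processing notes, the tools were cutadapt 1.1, Trimmomatic 0.32, Bowtie and MACS2 2.2.7.1, with the build GRCh38. Per the file headers, narrow peaks were called at a p threshold of 0.01, repeated reads at a position were reduced to 1, whichever of library and Input was deeper was scaled down, and local background windows were 1000 and 10000 bp. Each deposited peak has a pileup signal, a fold enrichment (a ratio), a −log10 p-value, a −log10 q-value and a length in bp, all made by the authors with MACS2. The headers say that q would not be calculated, but the q column is filled and was taken as it stands. Groups and replicate numbers came from the labels.

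From these, the pileup divided by the scaling factor in the headers gave whole reads at each summit, and the fold, with a pseudocount of 1, gave the background reads. The retained depth, between 18027832 and 18928589 reads per library, puts most summits between 6 and 8 reads, so single peaks carry wide counting errors. Peaks sharing at least 1 bp were merged. Regions were placed against RefSeq gene spans of GRCh38.p14, which give no exons, with a flank of 2 kb at both gene ends taken first. Usable sequence was counted over 1 Mb bins with any gene or peak. Intervals are 95% exact binomial or Poisson. The state was described with no test and no other group. The merging and location steps were tested on simulated data. Scripts ran in python 3.11.15 with pandas 2.3.3, numpy 2.4.6 and scipy 1.17.1.

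The regions and the 22 gene lists were chosen with earlier results of these data known. Genes were named by rule: those with a region in 3 of 3 libraries, the 10 with the most shared regions (ties by regions per Mb), the genes of the 15 regions with the strongest weakest peak, those with a gene-end region, list members, and always PRMT5, L1CAM, NRCAM and SMARCA4. Some results of this rule are not reported here. NUFIP2, F2RL2, TBX4 and DMD, the loci beside MIR4509-3 and the chromosome arms were chosen after their values were seen. All 22 lists matched in full. Alternatives were stricter −log10 p of 3 and 5, an overlap of 50% of the shorter peak, equal peak numbers per library, leaving out each replicate, flanks of 1 and 5 kb, and all annotated genes.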

Additional observations from a re-analysis of the deposited data

How the results depend on the processing

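Peaks stand on few reads, most with a q of 1, and any count of shared regions depends on how many weak peaks each library contributes. Requiring a −log10 p of 5 or more left 17 shared regions, 2 of them in 3 of 3 libraries, and 2 protein-coding genes. Of the 10 regions on chromosomes among them, 0% were at gene ends, 20.0% in interiors and 80.0% outside. Equal peak numbers per library gave 106 shared regions and 30 genes. A flank of 5 kb raised the gene-end share to 7.48%. With all annotated genes in place of protein-coding ones, 9.52% were at gene ends, 43.5% interior and 46.9% outside, and 87 genes with a median length of 177 kb had a region. Leaving out 1 replicate at a time requires a peak in both remaining libraries, so fewer regions follow by construction. The shared regions then numbered 39 to 78, the genes 12 to 25, the gene-end share 0 to 4.08%, the interior share 25 to 46.9%, the outside share 49.0 to 75% and the median gene length 247 to 309 kb. The 78 came from replicates 1 and 2 and the 39 from replicates 2 and 3. A count of regions in 3 of 3 cannot be had without a replicate. At a −log10 p of 3 or more (107 regions), an overlap of 50% (116) and a flank of 1 kb, the counts of regions and genes, the location shares and the median gene length stayed within 1.5 times the main count or within its 95% interval. The neuronal adhesion count fell from 3 to 1 genes at a −log10 p of 3 or more and to 0 at 5 or more. The cause of the changes not fixed by construction was not tested. No paired analysis was possible because 1 group was described and no test was made.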

Other observations

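Other long genes had peaks of every library without a shared region, and were picked here for their counts. LRP1B, a large lipoprotein receptor, had 6, 9 and 11 peaks in replicates 1, 2 and 3, although replicate 1 had the most peaks overall. DPP10, a partner of potassium channels, had 14, 6 and 5. ROBO2, an axon guidance receptor, had 10, 6 and 9, and EYS, an extracellular protein of photoreceptors, had 11, 6 and 7. RIMS2, a presynaptic scaffold, had 8, 4 and 9 in 755 kb, or 0.927 peaks per 100 kb and library, against 0.463 in CNTNAP2 and 0.465 in DMD. No density was compared by a test.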
